A study of Mus musculus with 14 samples.

Results

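The mevalonate arm of cholesterol synthesis was followed in mouse liver through 8 genes, Acat2, Hmgcs1, Mvk, Pmvk, Mvd, Idi1, Fdps and Ggps1. They were taken by symbol from a read count table of 25212 genes, and all 8 had enough counts to be tested among 14252 genes. The 14 livers came from male C57BL/6 mice made obese on a high fat diet (HFD), started in young animals some months before surgery and kept up afterwards. The DIO group held 5 mice without surgery, the GB-IL group 4 mice and the RYGB group 5 mice, and the labels date all operated livers to 8 weeks after the operation. In GB-IL the common bile duct was tied off and the gallbladder joined to the ileum near the caecum, so that bile entered the distal bowel. RYGB is Roux-en-Y gastric bypass, the bariatric operation with which bile diversion was compared. No allele or drug differed between the groups, and the DIO mice had no sham operation. Surgery itself therefore cannot be told apart from the rerouting of bile or food. The authors report weight loss and fat malabsorption after both operations, which cannot be told apart from these either.

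The mevalonate arm builds the isoprenoid units from which cholesterol is made. Acat2 joins acetyl-CoA units in the cytosol, Hmgcs1 adds another to form HMG-CoA, and a reductase that is not among the 8 genes turns HMG-CoA into mevalonate. Mvk and Pmvk phosphorylate mevalonate, Mvd decarboxylates it to isopentenyl pyrophosphate, and Idi1 isomerises that unit. Fdps condenses the units into farnesyl pyrophosphate, which goes either to squalene and sterols or, through Ggps1, to geranylgeranyl pyrophosphate for protein prenylation. In hepatocytes most of these genes are known targets of SREBP-2, a transcription factor released from the endoplasmic reticulum when membrane sterol is low, which works with the general factors NF-Y and Sp1.

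Promoter sequences are shown because most of the 8 genes moved together across livers while Ggps1 did not. RefSeq promoters on GRCm38.p6, running from 250 bases before to 50 bases after each start site, were at hand for 7 of the 8 genes (Fdps was not among them). They were searched on both strands for a sterol regulatory element (TCACNCCAC), an NF-Y box (CCAAT) and an Sp1 box (GGGCGG), which did not overlap one another in these windows. The 250 bases before the start are given for 4 genes, 5′ to 3′ on the strand of the gene, with the matches to the 3 motifs in capitals.
Hmgcs1, chr13:119690101-119690350, plus strand: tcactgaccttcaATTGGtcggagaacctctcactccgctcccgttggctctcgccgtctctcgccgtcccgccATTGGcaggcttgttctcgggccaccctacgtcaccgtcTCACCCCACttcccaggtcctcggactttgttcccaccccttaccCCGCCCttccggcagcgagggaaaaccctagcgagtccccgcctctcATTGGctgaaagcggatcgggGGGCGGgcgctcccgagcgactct
Mvk, chr5:114444019-114444268, plus strand: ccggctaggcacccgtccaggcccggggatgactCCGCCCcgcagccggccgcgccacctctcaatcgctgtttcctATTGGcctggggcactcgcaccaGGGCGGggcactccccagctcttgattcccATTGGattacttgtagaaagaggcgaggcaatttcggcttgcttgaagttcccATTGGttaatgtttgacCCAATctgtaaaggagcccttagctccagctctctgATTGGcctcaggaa
Idi1, chr13:8885356-8885605, plus strand: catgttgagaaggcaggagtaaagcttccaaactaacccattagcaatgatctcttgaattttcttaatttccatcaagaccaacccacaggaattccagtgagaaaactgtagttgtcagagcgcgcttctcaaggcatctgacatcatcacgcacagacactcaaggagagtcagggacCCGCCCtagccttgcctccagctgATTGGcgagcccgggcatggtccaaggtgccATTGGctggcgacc
Ggps1, chr13:14063489-14063738, minus strand: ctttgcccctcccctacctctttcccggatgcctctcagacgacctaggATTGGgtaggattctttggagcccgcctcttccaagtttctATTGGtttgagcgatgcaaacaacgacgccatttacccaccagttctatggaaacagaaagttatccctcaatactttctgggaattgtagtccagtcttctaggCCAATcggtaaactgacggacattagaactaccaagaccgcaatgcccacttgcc
Hmgcs1 alone of the 7 held the sterol regulatory element, written TCACCCCAC with its first base 137 bases before the start, a motif found in 1.24% of 32851 mouse promoters. Over the whole window of 300 bases, NF-Y boxes were found in 37.4% of all promoters and numbered 5 for Mvk, 4 for Hmgcs1, 3 for Ggps1, 2 for Idi1, 2 for Mvd and 0 for Acat2. Sp1 boxes, found in 35.7% of all promoters, numbered 3 for Hmgcs1, 2 for Mvk, 1 each for Idi1, Acat2 and Mvd, and 0 for Ggps1 and Pmvk. For Hmgcs1, 1 box of either kind lay after the start and so is not in the printed bases. Of the 2 promoters listed for Pmvk, the upstream one held 1 NF-Y box and the other held none of the motifs. These matches describe the letters in a short window and are no evidence of binding.

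All libraries were deep enough to measure these genes, with 18223135 to 28656631 counted reads per liver and between 62 (Ggps1) and 26606 (Hmgcs1) reads for a gene in a liver. Levels are given as CPM, the reads of a gene relative to all counted reads of its library, scaled by the TMM method. Hepatocyte markers summed to 125400 to 143200 CPM in DIO, 121800 to 151700 CPM in RYGB and 86150 to 123700 CPM in GB-IL. The tissue label thus held, but composition differed, and every GB-IL liver lay below every DIO liver in this sum. Cholangiocyte markers summed to 32.2 to 64.5 CPM in DIO, 58.2 to 70.0 CPM in RYGB and 60.2 to 296.9 CPM in GB-IL. GB-IL liver 1 also carried 1047 CPM of skeletal muscle markers and 1228 CPM of exocrine pancreas markers, against at most 2.81 CPM and 36.7 CPM in any other liver. The first principal component (48.5% of the variance) placed GB-IL livers 1 to 3 at 134, 106 and 20.005, whereas GB-IL liver 4, at -35.2, fell inside the DIO range of -45.4 to -21.8. In bulk tissue, fewer cells of a type and less RNA per cell cannot be told apart.

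Levels per kilobase of exon allow only a rough comparison between genes. The length pools the exons of all annotated transcripts, and 26.7% of the 4208 exon bases of Fdps overlap another gene model. Sequence shared with other genes, described below, may also affect the counts of Acat2, Fdps and Idi1. On this scale Hmgcs1 had the highest mean of the 8 in DIO livers, at 40.6 ± 47.4 CPM per kb (mean ± SD, n = 5). It was followed by Fdps (30.5 ± 19.5), Idi1 (25.7 ± 18.8), Acat2 (19.3 ± 8.09) and Pmvk (15.5 ± 6.02). Mvd (5.95 ± 7.50) and Mvk (4.79 ± 1.72) were lower, and Ggps1 came last at 1.07 ± 0.400. The ranges of neighbours in this order overlapped, except that Ggps1 lay below Mvk in every DIO liver. In RYGB livers Hmgcs1 (157 ± 95.4) and Idi1 (103 ± 62.0) headed the order, ahead of Fdps (63.2 ± 43.7). In GB-IL livers the means of Fdps (67.3 ± 37.3) and Hmgcs1 (63.0 ± 41.3) were close, but single livers were not level. In CPM the ratio of Hmgcs1 to Fdps was 0.689, 0.818 and 0.430 in GB-IL livers 1 to 3 and 2.98 in GB-IL liver 4.

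The comparison of RYGB with DIO asks whether gastric bypass changed hepatic expression of the pathway. All 8 genes had a higher mean in RYGB, with log2 fold changes from 0.16 (Ggps1) to 2.00 (Idi1) and a median of 1.28, against a median of 0.012 over all genes tested. None of the 8 passed an FDR of 0.05 (edgeR's quasi-likelihood test, Benjamini-Hochberg adjustment over 14252 genes), and neither did any other gene, the share called being 0%. At an unadjusted p under 0.05, 5 of the 8 were higher, against 5.35% of all genes. None of the 8 separated the groups without overlap, against 3.53% of all genes.

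**Figure D1:**
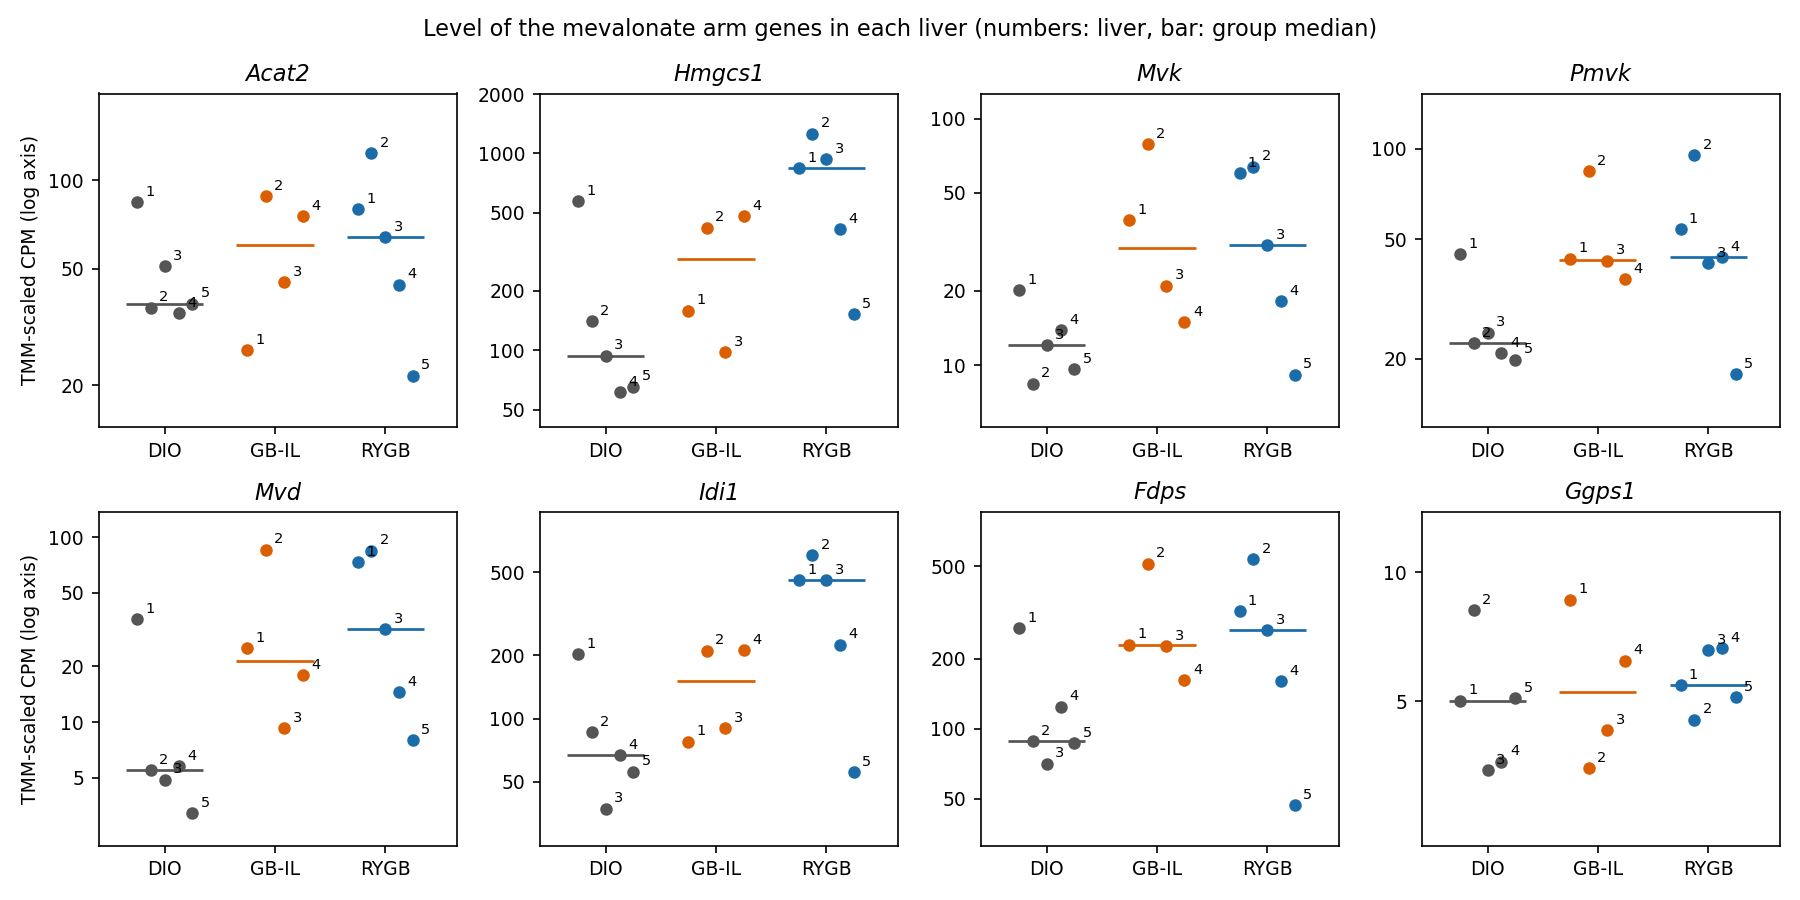
Level of each gene in each liver as TMM-scaled CPM on a log axis, 1 panel per gene, with points numbered by liver, grouped as DIO (5 livers), GB-IL (4) and RYGB (5), and a bar at the group median. DIO liver 1 stands above the other DIO livers in 7 of the 8 panels and RYGB liver 5 below the other RYGB livers in 7, Ggps1 being the exception for both.

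Among the enzymes that make HMG-CoA, Hmgcs1 (chromosome 13, 119690379 to 119708260, plus strand, mm10) had the widest range. It was read at 572, 141, 93.9, 61.0 and 65.3 CPM in DIO livers 1 to 5 and at 838, 1259, 936, 413 and 152 CPM in RYGB livers 1 to 5. Thus 3 RYGB livers lay above every DIO liver, while RYGB liver 5 was next to DIO liver 2. The log2 fold change was 1.95 ± 0.703 (SE), a 3.86-fold difference with a 95% interval of 1.36 to 10.9 and an adjusted p of 0.479 in edgeR's test. Acat2 (chromosome 17, 12942890 to 12960747, minus strand), one step earlier, ranged from 35.3 to 84.2 CPM in DIO and from 21.6 to 124 CPM in RYGB. Its fold was 1.36 with an interval of 0.728 to 2.53.

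The genes that turn mevalonate into isopentenyl pyrophosphate were uneven in level but alike in pattern. Mvk (chromosome 5, 114444269 to 114460591, plus strand) was read at 20.1, 8.41, 12.1, 13.9 and 9.61 CPM in DIO and at 60.1, 63.8, 30.7, 18.2 and 9.16 CPM in RYGB, with 3 RYGB livers above all DIO livers and the other 2 within the DIO range. Its log2 fold change was 1.51 ± 0.523, and the adjusted p in edgeR's test was 0.468. Mvd (chromosome 8, 122433601 to 122443422, minus strand) stood at 35.9 CPM in DIO liver 1 and at 3.22 to 5.77 CPM in the other 4, against 73.3, 84.5, 31.9, 14.5 and 7.99 CPM in RYGB. Every RYGB liver thus exceeded 4 of the 5 DIO livers, but only 2 exceeded DIO liver 1. The log2 fold change of Mvd was 1.94 ± 0.809 (adjusted p = 0.547, edgeR). Pmvk (chromosome 3, 89454541 to 89469013, plus strand) had a narrower range, 19.9 to 44.7 CPM in DIO and 17.8 to 95.4 CPM in RYGB, and a fold of 1.91 with an interval of 1.09 to 3.32.

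Of the genes that handle the isoprenoid units, Idi1 (chromosome 13, 8885501 to 8892451, plus strand) had the smallest p of the 8. It was read at 204, 86.1, 37.2, 67.1 and 55.9 CPM in DIO and at 457, 604, 457, 225 and 55.4 CPM in RYGB. RYGB livers 1 to 4 all lay above every DIO liver, whereas RYGB liver 5 lay below 4 of them. The log2 fold change was 2.00 ± 0.578, a 4.00-fold difference with an interval of 1.70 to 9.39 and an adjusted p of 0.383 in edgeR's test. Fdps (chromosome 3, 89093588 to 89101959, minus strand) ranged from 70.8 to 270 CPM in DIO and from 47.1 to 536 CPM in RYGB, its fold being 2.07 with an interval of 0.938 to 4.59. Ggps1 (chromosome 13, 14050659 to 14063488, minus strand) was flat and low, at 5.02, 8.16, 3.46, 3.62 and 5.09 CPM in DIO and 5.46, 4.53, 6.58, 6.66 and 5.12 CPM in RYGB. Its RYGB livers all fell within the DIO range, and the fold was 1.12 with an interval of 0.737 to 1.70.

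**Figure D2:**
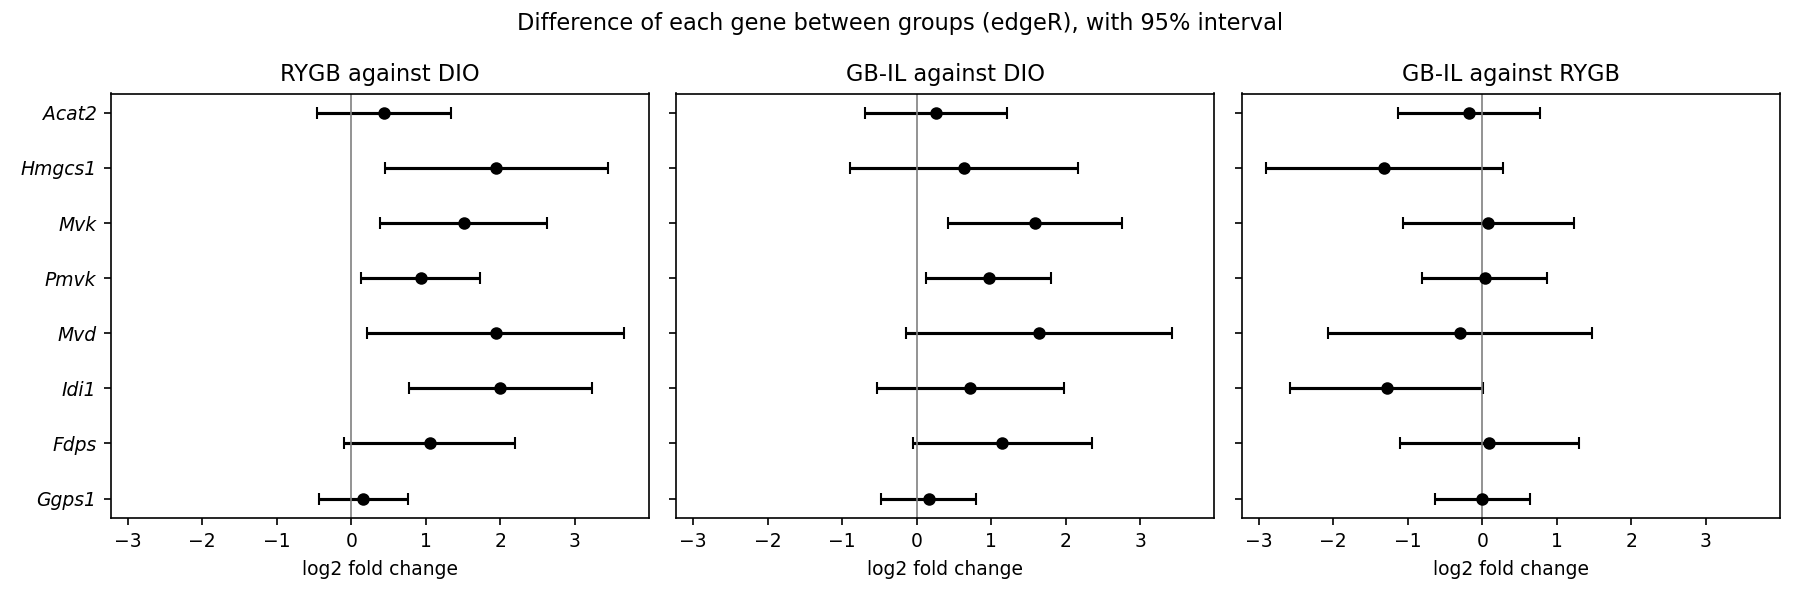
log2 fold change of each gene (points) with its 95% interval (bars) from edgeR's quasi-likelihood fit of 14 livers, for RYGB against DIO, GB-IL against DIO and GB-IL against RYGB. Intervals of 5 genes lie above 0 in the first panel, those of Mvk and Pmvk in the second, and all 8 include 0 in the third.

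In GB-IL against DIO all 8 genes again had a higher mean, with a median log2 fold change of 0.84 (0.039 over all genes tested), and the highest values were those of Mvd (1.64), Mvk (1.59) and Fdps (1.15), with Hmgcs1 at 0.64 and Idi1 at 0.72. This order rested on single livers: without DIO liver 1 Hmgcs1 (1.68) stood above Fdps (1.61), and without GB-IL liver 2 Mvd (0.65) fell below Mvk (0.95) and Fdps (0.68). None of the 8 passed the FDR, against 3.26% of all genes in edgeR's test. That share was 0% without GB-IL liver 1, without GB-IL liver 2 or without any 1 of the 5 DIO livers, 3.99% once GB-IL liver 3 was left out and 24.6% once GB-IL liver 4 was. At an unadjusted p under 0.05 the 2 genes Mvk and Pmvk were higher, against 16.7% of all genes. None separated the groups without overlap (4.17% of all genes did). This comparison and the preceding one share the DIO livers, so their values are given side by side and their likeness is not counted as a result.

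Mvk was read at 38.8, 79.0, 21.0 and 14.9 CPM in GB-IL livers 1 to 4, of which 3 lay above every DIO liver. Its log2 fold change was 1.59 ± 0.546 with an adjusted p of 0.112 (edgeR). For Pmvk the 4 livers stood at 43.1, 84.1, 42.5 and 36.9 CPM, above at least 4 of the 5 DIO livers in each case, with a log2 fold change of 0.96 ± 0.394 and an adjusted p of 0.168 (edgeR). Mvd was read at 25.1, 85.5, 9.24 and 17.99 CPM, a fold of 3.11 with an interval of 0.907 to 10.7. Fdps stood at 231, 514, 227 and 162 CPM, a fold of 2.21 with an interval of 0.964 to 5.09.

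Hmgcs1 was read at 159, 420, 97.5 and 481 CPM in GB-IL, entirely within the DIO range, and Idi1 at 77.6, 211, 90.3 and 211 CPM, with livers 2 and 4 just above DIO liver 1. Their folds against DIO were 1.55 (interval 0.538 to 4.48) and 1.64 (0.688 to 3.92). Acat2 ranged from 26.3 to 88.2 CPM and Ggps1 from 3.498 to 8.65 CPM, and these 2 genes had a log2 fold change below 0 without GB-IL liver 2 (Acat2, -0.0165) and without GB-IL liver 1 (Ggps1, -0.123). Some cholangiocyte, neutrophil and macrophage markers were also higher in GB-IL. Of those tested, 3 of 5, 3 of 4 and 3 of 8 passed the FDR against DIO in edgeR's test, against 3.26% of all genes in either direction. As with every call in this comparison, these were lost without GB-IL liver 1 or 2 or any single DIO liver. In GB-IL liver 4 the cholangiocyte sum (60.2 CPM) and the neutrophil sum (1.76 CPM) did not exceed the highest DIO sums, 64.5 and 4.41 CPM. The neutrophil sum was 1.76 to 335 CPM in GB-IL against 1.91 to 4.41 CPM in DIO, and the macrophage sum 604 to 2169 CPM against 390 to 693 CPM. No marker of these lists was at 0 in all livers. Their part in the values of the 8 genes was not tested.

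Set directly against each other, GB-IL and RYGB differed most in Hmgcs1 and Idi1, both lower in GB-IL, with log2 fold changes of -1.31 ± 0.743 and -1.28 ± 0.609 and adjusted p-values of 0.301 and 0.231 (edgeR). Intervals of the fold ran from 0.134 to 1.21 for Hmgcs1 and from 0.167 to 1.01 for Idi1, so a severalfold lower level and no difference were both within reach. For the other 6 genes the log2 fold change lay between -0.30 (Mvd) and 0.09 (Fdps), and the median of the 8 was -0.09. No gene of the 8 reached an unadjusted p under 0.05, against 22.1% of all genes in either direction, none passed the FDR, as was the case for 0% of all genes, and none separated the groups (2.85% of all genes). In exact two-sided permutation tests on log2 levels, 24 in all and unadjusted, the smallest p was 0.0317, for Hmgcs1 in RYGB against DIO and for Mvk in GB-IL against DIO. The smallest p that these tests can give is 0.00794 with 5 livers against 5 and 0.0159 with 4 against 5.

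Within every group single livers set much of the spread, and they did so for most of the genes at once. DIO liver 1 was the highest DIO liver in 7 of the 8 genes, with a median log2 level of 1.06 over the DIO mean, against -0.44 to -0.25 in the other 4. RYGB liver 2 was the highest of its group in 7 genes (median 2.31), and RYGB liver 5 the lowest in 7 (median -0.43), below the level of most DIO livers. In GB-IL, liver 2 was highest in 5 genes (median 1.74). The highest RYGB liver exceeded the lowest 11.4-fold for Fdps, 10.9-fold for Idi1 and 10.6-fold for Mvd, but 1.47-fold for Ggps1. RYGB liver 5 also had the highest sum of its group for neutrophil (118 CPM), stellate cell (519 CPM) and endothelial markers (543 CPM), where the median RYGB liver had 4.33, 284 and 243 CPM. Its hepatocyte sum of 151700 CPM was likewise the highest of all 14 livers. DIO liver 1 had the highest DIO sum for neutrophil markers (4.41 CPM), stellate cell markers (276 CPM), cholangiocyte markers (64.5 CPM) and endothelial markers (214 CPM), while its hepatocyte sum of 130600 CPM was near the DIO median of 128900 CPM. The part of these marker differences in the levels of the 8 genes was not tested.

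**Figure D3:**
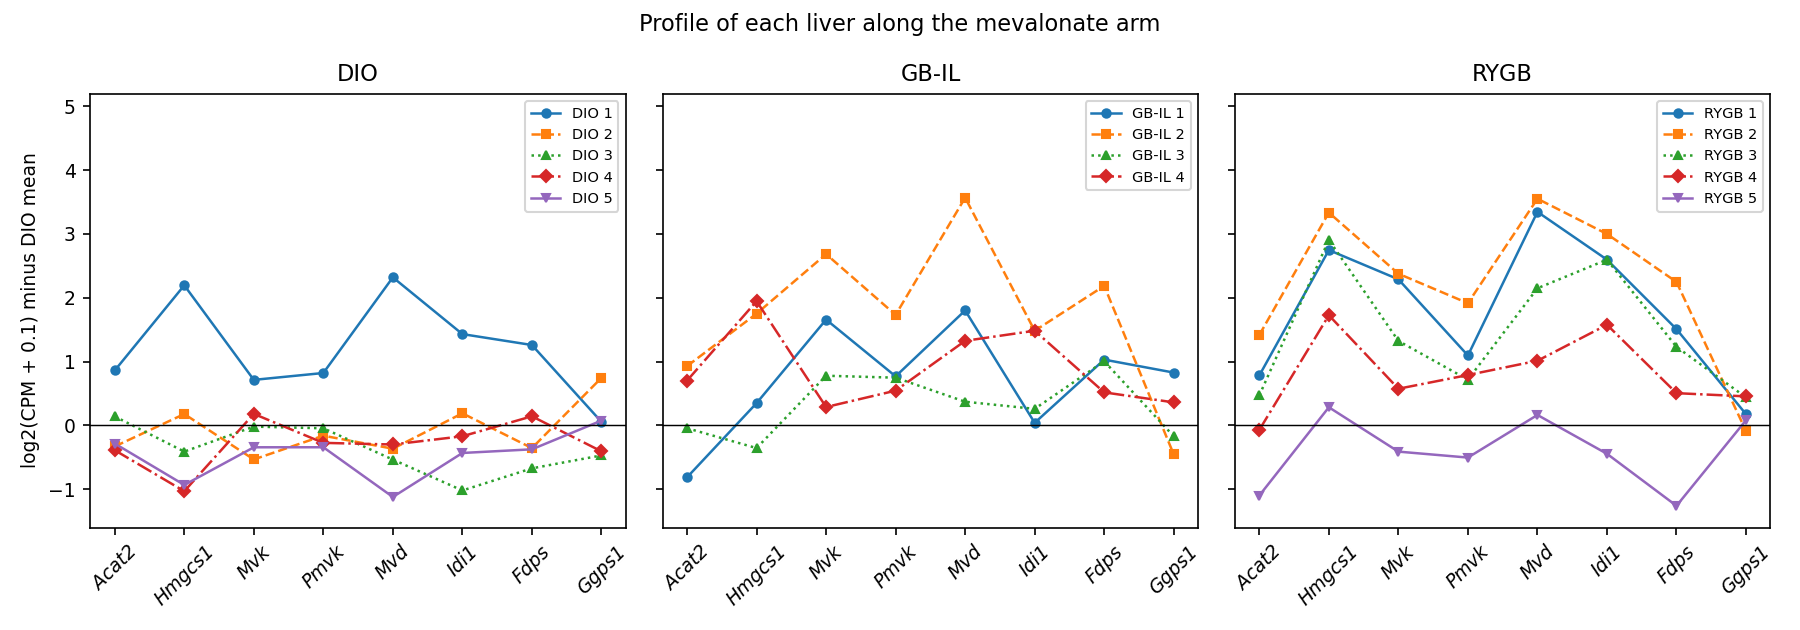
Profile of each liver along the pathway, as log2(CPM + 0.1) of each gene minus the mean of the 5 DIO livers, with 1 line per liver and 1 panel per group. RYGB livers stand at different heights, with some lines crossing, and come close together at Ggps1. GB-IL liver 4 crosses the other GB-IL lines, and DIO liver 1 (median 1.06) lies apart from the other DIO livers.

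For Hmgcs1, Mvd and Idi1, leaving out DIO liver 1 moved the difference between RYGB and DIO more than leaving out any other liver. Their log2 fold changes without it were 2.99, 3.13 and 2.55, and edgeR's adjusted p-values 0.185, 0.238 and 0.214. In GB-IL against DIO, Mvd stood at 2.84 without DIO liver 1. Without GB-IL liver 4, Mvk passed the FDR (1.85 on the log2 scale, adjusted p = 0.0259 in edgeR's test), in a comparison where 15.4% of all genes were called higher.

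**Figure D4:**
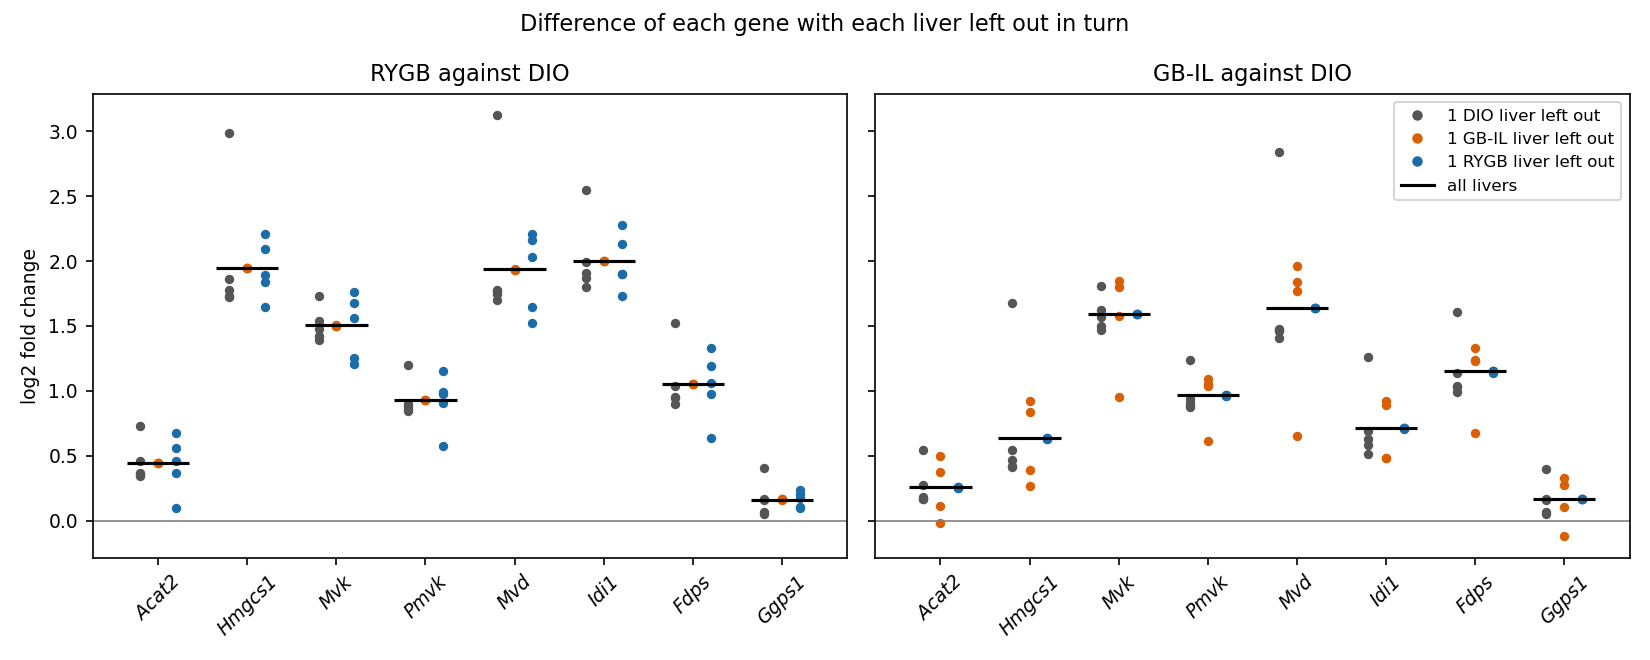
log2 fold change of each gene with 1 liver left out (points, coloured by the group of that liver) and with all livers (bars), for RYGB against DIO and GB-IL against DIO. The highest points of Hmgcs1 and Mvd come from leaving out DIO liver 1, at 2.99 and 3.13 in the first panel.

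The choice of test decided whether genes were called. In RYGB against DIO, DESeq2 called Idi1 (adjusted p = 0.0391), in a comparison where it called 0.449% of all genes higher. Limma's voom with sample quality weights called Hmgcs1, Mvk, Pmvk, Mvd and Idi1, with adjusted p-values from 0.00741 to 0.0297, where 6.08% of all genes were called higher. Its weights, which scale with how closely a library follows its group, were 0.583 for RYGB liver 5 and 0.881 to 2.39 for the other RYGB livers, and ran from 0.725 to 4.43 in DIO. In GB-IL against DIO, Mvk was called by DESeq2 (adjusted p = 0.0411, 7.77% of all genes called higher) and by edgeR's exact test (adjusted p = 0.0450, 7.24% of all genes).

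Levels moved together while some ratios between the genes held steady within a group. Over all 28 pairs of the 8 genes, the ratio separated RYGB from DIO without overlap in 6 pairs, against 3.84% of all pairs of tested genes. The pairs share genes, so the 6 are not separate observations, and no test was made. Relative to Fdps, both Hmgcs1 and Idi1 were higher in RYGB: the ratio of Idi1 to Fdps was 0.525 to 0.976 in DIO and 1.13 to 1.72 in RYGB, and that of Hmgcs1 to Fdps 0.490 to 2.11 and 2.35 to 3.53. The remaining 4 pairs had Acat2 lower in RYGB relative to Hmgcs1, Mvk, Pmvk and Idi1, by narrow margins. The highest RYGB and lowest DIO ratios were 0.142 and 0.147 to Hmgcs1, and 2.42 and 2.55 to Mvk. They were 1.545 and 1.632 to Pmvk, and 0.389 and 0.413 to Idi1. All 4 rest on the count of Acat2, which shares 39.1% of its 50-base words with other genes. RYGB liver 5, low in 7 of the genes, had ratios within the range of the other RYGB livers for Idi1 to Fdps (1.18) and Hmgcs1 to Fdps (3.23). Its ratio of Acat2 to Idi1, 0.389, lay outside the 0.141 to 0.205 of the other RYGB livers. It was also the lowest RYGB liver for Idi1 to Mvk (6.05), Idi1 to Pmvk (3.12) and Hmgcs1 to Pmvk (8.55). No pair separated GB-IL from DIO. For 1 pair, Acat2 to Hmgcs1, GB-IL (0.157 to 0.461) did not overlap RYGB (0.0686 to 0.142). The share of all pairs of tested genes is not given for these comparisons, so neither count is read as a result about the 8 genes.

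GB-IL livers were not alike in these ratios. The ratio of Hmgcs1 to Mvk was 4.10, 5.32 and 4.64 in GB-IL livers 1 to 3 and 32.2 in GB-IL liver 4, where it was 13.96 to 30.5 in RYGB and 4.404 to 28.5 in DIO. Idi1 to Fdps likewise was 0.336, 0.411 and 0.398 in livers 1 to 3, below every DIO liver, and 1.31 in liver 4, within the RYGB range. GB-IL liver 4 was the one that lay among the DIO livers on the first principal component, and its neutrophil markers (1.76 CPM) and cholangiocyte markers (60.2 CPM) were the lowest of the group. These ratios were picked after the levels had been seen and describe the livers only.

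**Figure D5:**
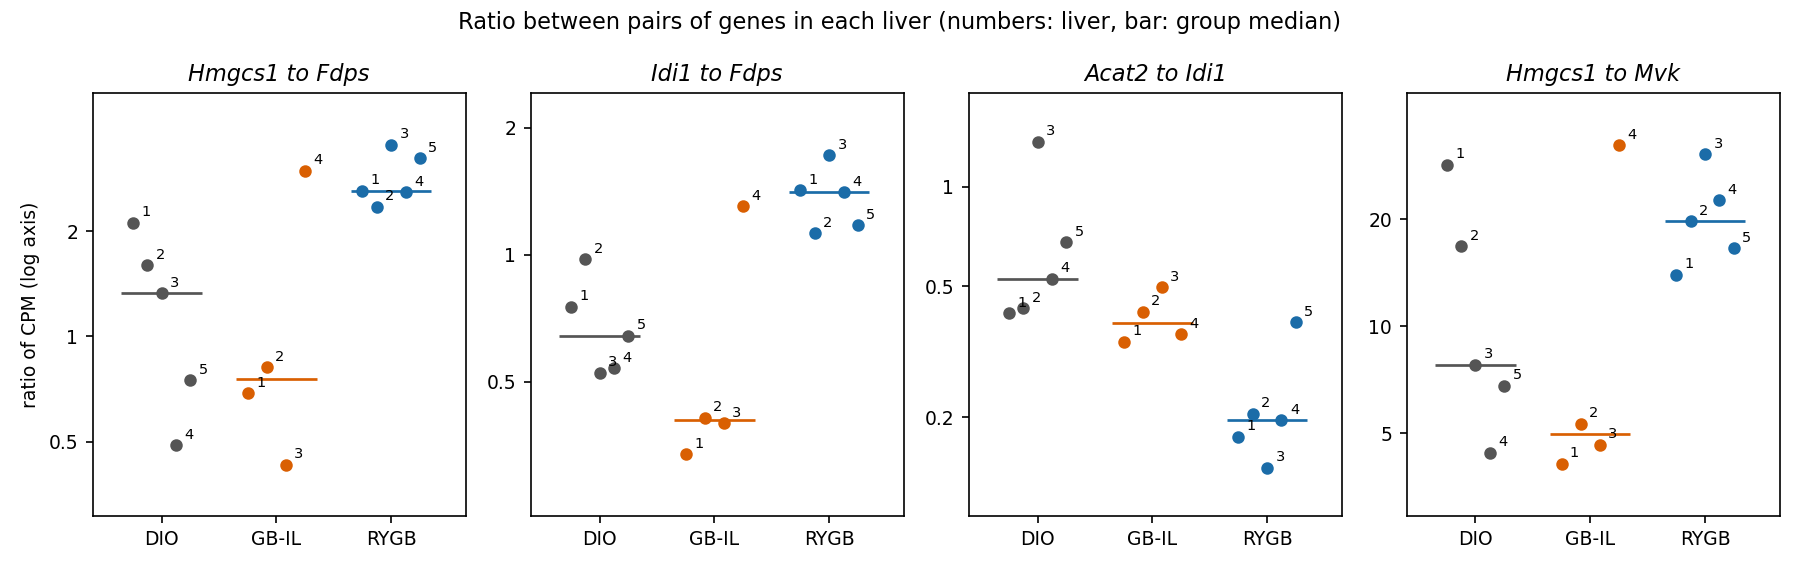
Ratio of the CPM of 2 genes in each liver on a log axis, for Hmgcs1 to Fdps, Idi1 to Fdps, Acat2 to Idi1 and Hmgcs1 to Mvk, with points numbered by liver and a bar at the group median. In the first and second panels the 5 RYGB livers lie above all DIO livers, and GB-IL liver 4 lies apart from the other GB-IL livers in all panels but that of Acat2 to Idi1.

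The 12 enzymes that carry farnesyl pyrophosphate through squalene to cholesterol had values much like the mevalonate arm. In RYGB against DIO 11 of the 12 were higher and 8 reached an unadjusted p under 0.05, all higher, with a median log2 fold change of 1.15, where 5.35% of all genes were higher at that p. None passed the FDR in edgeR's test. Squalene epoxidase, Sqle, stood 1.96 ± 0.560 above DIO on the log2 scale (adjusted p = 0.383, edgeR), and the sterol C4-methyl oxidase Msmo1, listed under its older symbol Sc4mol, 1.80 ± 0.542. In GB-IL against DIO 3 of the 12 were higher at an unadjusted p under 0.05, as were 16.7% of all genes, and the median was 0.58, Sqle having a value of 1.85 ± 0.579. Among 8 genes of the SREBP system, the median was 0.34 after RYGB and 0.28 after GB-IL, 1 gene being higher at an unadjusted p under 0.05 in each and none passing the FDR. Srebf2, which encodes SREBP-2, stood at 0.76 ± 0.298 and 0.70 ± 0.313, with adjusted p-values of 0.515 and 0.201 in edgeR's test. Scap, which escorts SREBP-2 to the Golgi, had log2 fold changes of 0.32 ± 0.174 and 0.12 ± 0.184.

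Lists of genes that use products of the pathway, or that supply or compete for acetyl-CoA, had medians below 0 in both comparisons. Of all genes, 3.36% in RYGB and 6.43% in GB-IL were lower than in DIO at an unadjusted p under 0.05. For 12 genes that use isoprenoids for ubiquinone, dolichol, tRNA and protein prenylation, among them Coq2 (-0.34 ± 0.142) and Trit1 (-0.23 ± 0.161), the median log2 fold change was -0.09 in RYGB against DIO and -0.16 in GB-IL against DIO, with ranges of -0.34 to 0.36 and -0.71 to 0.55. At that p, 1 gene, Coq2, was lower in the former and 0 in the latter. All 7 mitochondrial genes of acetyl-CoA and ketone metabolism were lower on average in both comparisons, with 1 and 5 at an unadjusted p under 0.05. Acaa2, the last enzyme of mitochondrial β-oxidation, had values of -0.61 ± 0.245 and -0.97 ± 0.264 (adjusted p of 0.529 and 0.0586, edgeR). For 10 genes of lipogenesis and acetyl-CoA supply, the medians were -0.22 and -0.84, with 2 and 3 genes lower at an unadjusted p under 0.05. Of the 10, 1 was higher on average in RYGB (0.41). Thrsp, a regulator of lipogenesis, stood at -2.66 ± 0.704 and -2.05 ± 0.747 (adjusted p of 0.348 and 0.130, edgeR), and Me1, the malic enzyme that supplies NADPH, at -1.604 ± 0.596 and -1.01 ± 0.630. No gene of these lists passed the FDR in edgeR's test.

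Cholesterol synthesis genes vary over the day, and 15 clock genes were measured beside them. Their median log2 fold change was -0.47 in RYGB against DIO, ranging from -2.19 to 2.07, and -0.18 in GB-IL against DIO. At an unadjusted p under 0.05, 1 was higher and 3 lower in RYGB (5.35% and 3.36% of all genes), and none passed the FDR in edgeR's test. Tef had a value of -0.93 ± 0.352 and Ciart, listed under its older symbol Gm129, of -2.19 ± 0.838. The labels and methods do not state the time of day at which livers were taken, and its part in the values of the 8 genes was not tested.

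Across the 14 livers each of the 8 genes except Ggps1 followed the mean of the standardised levels of the other 7, with Pearson r from 0.726 (Acat2) to 0.938 (Mvd), against -0.0268 for Ggps1. After the mean of each group was removed r was 0.768 to 0.921 for the 7 and -0.186 for Ggps1. Among the other genes tested, the 10 with the highest r with the mean of all 8 were taken, and each had an r above 0.9. They were led by Fdft1 (squalene synthase, 0.982), Cyp51 (lanosterol demethylase, 0.977) and Sc4mol (0.974), and included Nsdhl (0.919) and Lss (lanosterol synthase, 0.918) of the same pathway, Rdh11 (0.917), a retinol dehydrogenase, and the predicted genes Gm3571 (0.921) and Gm6781 (0.913). These values describe 14 livers that share preparation, depth range and tissue composition, and carry no test.

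Near-identical sequence limits some of the counts, since neither the multimapping nor the strand setting is stated. Of the 50-base words in Acat2 transcripts 39.1% also occur in another gene, chiefly Acat3, and for Fdps, Idi1 and Hmgcs1 the shares were 26.2%, 25.3% and 11.6%, chiefly with predicted genes elsewhere or gene models that overlap them. For Ggps1 it was 9.58%, chiefly with the predicted gene Gm5630 and with Arid4b. Gm3571, named among the most alike genes, shares 534 such words with Fdps, so the reads of the pair may not be separable. Mvk shares 0.71% and Pmvk and Mvd none. Acat3 itself had a mean of 114 ± 21.3 CPM in DIO (n = 5), 67.4 ± 47.8 in GB-IL (n = 4) and 113 ± 34.0 in RYGB (n = 5), a different pattern from Acat2. Tcp1, which shares 290 such words with Acat2, was even at 148 ± 7.34, 145 ± 23.4 and 137 ± 15.3 CPM. Idi2, the paralog of Idi1, had no count in any liver.

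Genes beside or related to the 8 did not share their pattern in full. Mmab, which lies head to head with Mvk, stood at 0.69 ± 0.325 on the log2 scale against DIO after RYGB and at -0.17 ± 0.345 after GB-IL. Arid4b, which overlaps Ggps1 on the opposite strand over 257 exon bases, had values of 0.34 ± 0.172 and 0.05 ± 0.182. Acat1, the mitochondrial relative of Acat2, was lower on average in GB-IL livers, by -0.83 ± 0.385 on the log2 scale against DIO (adjusted p = 0.213, edgeR), while cytosolic Acat2 stood at 0.26.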

How the data were processed

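Liver RNA was sequenced as 1 library per mouse. The authors aligned reads to mm10 with TopHat 2 and made gene counts with HTSeq. The deposited values are whole read counts without normalization. Neither the HTSeq version nor its annotation and strandedness is stated. The labels name stranded mRNA and total RNA kits without assigning them to livers, so no kit term could be fitted. The methods describe prior amplification of the RNA. The submitters' processing notes also list a human build, which was not used here.

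The tools were edgeR 4.0.16, DESeq2 1.42.0 and limma 3.58.1 (R 4.3.3), with scipy 1.17.1 and pandas 2.3.3 (Python 3.11.15) for the rest. Genes were selected by filterByExpr, scaled by TMM and fitted by edgeR's quasi-likelihood method with a mean per group over 14 livers, and p-values were adjusted by the Benjamini-Hochberg method at an FDR of 0.05. SEs were derived from the F statistic, and intervals are 95%. Permutation tests were exact and two-sided on log2(CPM + 0.1). Marker sums are CPM of the total count. Positions and exon lengths are from GENCODE M21, and promoters from RefSeq. List symbols absent from the table were matched by Ensembl identifier.

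The 8 genes, the lists and the tests were chosen with earlier results of these data known. Named genes are the 8, the 2 with the smallest p per list in RYGB against DIO, the neighbouring or related genes with counts, and the 10 most alike by r. Some genes named by these rules are not reported here, among them 2 of the 10.

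Alternatives tried were upper quartile and RLE scaling, the exact test of edgeR, DESeq2, voom with quality weights, robust estimation, no filter, a mean count of at least 50, fits limited to the groups compared, a block for the replicate number, and leaving out each liver.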

Additional observations from a re-analysis of the deposited data

Results flagged for a closer look

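Of 24 sets of livers (8 genes in 3 groups), 5 had a liver whose gap to its nearest neighbour, as a share of the range of the group, exceeded Dixon's 95% critical value. For normally distributed values chance alone flags about 1 set in 20. The gaps were taken on CPM without a log, so that rate need not hold here, and gaps on log2 levels were not tested. Of the 5 flags, 4 fell on DIO liver 1, and since the 8 genes move together these are not separate events. DIO liver 1 stood at 571.7 CPM for Hmgcs1 (next 141.2), at 44.67 CPM for Pmvk (next 24.46), at 35.93 CPM for Mvd (next 5.768) and at 270.4 CPM for Fdps (next 124.6). GB-IL liver 2 was flagged for Pmvk, at 84.06 CPM against 43.07 CPM in the next liver.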

How the results depend on the processing

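Of 576 values of single genes under the alternatives, 35 changed sign, all but 2 of them in GB-IL against RYGB, where most folds were near 0. There the log2 fold changes with 1 liver left out ranged from -0.458 to 0.155 for Acat2, -0.376 to 0.51 for Fdps, -0.287 to 0.162 for Ggps1, -1.28 to 0.117 for Mvd, -0.551 to 0.384 for Mvk and -0.317 to 0.389 for Pmvk. In GB-IL against DIO they ranged from -0.0165 to 0.543 for Acat2 and from -0.123 to 0.401 for Ggps1. In GB-IL against RYGB voom turned Fdps (-0.0149), Ggps1 (-0.292), Mvk (-0.301) and Pmvk (-0.13), no filter turned Ggps1 (-0.0407) and Pmvk (-0.0016), and a fit limited to the groups compared turned Ggps1 (-0.00371). In RYGB against DIO 0 of the 8 genes were called with all livers and with any 1 liver left out, 1 by DESeq2 and 5 by voom. In GB-IL against DIO 0 were called with all livers, 1 by DESeq2, 1 by the exact test and 0 to 1 with 1 liver left out, the 1 being Mvk without GB-IL liver 4. In GB-IL against RYGB 0 were called under every alternative. The median log2 fold change of the 8 ranged from 0.92 (without RYGB liver 2) to 1.62 (without DIO liver 1) in RYGB against DIO, from 0.547 (without GB-IL liver 2) to 1.44 (without DIO liver 1) in GB-IL against DIO and from -0.504 to 0.136 in GB-IL against RYGB. The cause of these changes was not tested. The replicate numbers showed no general pairing of the livers. Over 13 pairs of livers with the same number, r of the deviations from the group means ran from -0.382 to 0.381, with a median of -0.00775. In both other groups at once, 0 livers correlated best with their own number. RYGB liver 4 did have its highest r with GB-IL liver 4 (0.381). With the number as a replicate block 0 of the 8 genes were called in any comparison, the medians were 0.944, 0.662 and -0.17, and in GB-IL against RYGB Ggps1 (-0.0614), Mvk (-0.111) and Pmvk (-0.067) changed sign. At this depth Ggps1, the gene with the fewest reads (62 to 187 counts per liver), had the smallest SE of the 8 in every comparison (0.282 to 0.299).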
